A study of Mus musculus with 17 samples.

Results

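The comparison described here sets Ly6C+ monocytes of G-CSF-treated mice (G-CSF-Ly6C+) against Ly6C+ monocytes of diphtheria toxin (DT)-treated CD11c.DTR mice (DT-Ly6C+), and asks in which genes the populations that accumulate in the spleen after these treatments differ. It holds 6 of the 17 arrays in the series, 3 per group, chosen because both groups were run in the set whose array names begin with JS. Each array is an Affymetrix MoGene 2.0 chip that read the RNA of 1 sorted preparation, and all levels below are on a log2 scale. DT-Ly6C+ cells came from CD11c.DTR mice, which carry a DT receptor fused to a fluorescent protein under the promoter of Itgax (CD11c), as heterozygotes or homozygotes, and were taken 48 h after a single injection of DT; the receptor makes DCs and some macrophages sensitive to the toxin. G-CSF-Ly6C+ cells came from C57BL/6 mice without the transgene, which by the study's methods were injected subcutaneously with recombinant human G-CSF over several days, whereas the array label names both Flt3L and G-CSF. PBS-Ly6C+ monocytes (3 further arrays of the JS set) came from CD11c.DTR mice injected with PBS, and no array of vehicle-treated C57BL/6 mice was analysed here. All mice are labelled C57BL/6 and 8 to 12 weeks old, and all monocytes came from spleen, sorted for the lineage-negative CD11b+ CD115-high Ly6C-high phenotype in CD11c.DTR mice and described as lineage-negative CD11b+ Ly6C+, and elsewhere as Ly6C-high, in G-CSF-treated mice, for which CD115 is not named. The lineage antibodies that the methods list, without naming the experiments, bind T, B and NK cells and, through Ly-6G, neutrophils. Transgene, agent and schedule therefore differ between the groups, as may the gate for CD115, and cannot be told apart. Each array holds cells of single or pooled mice, so that p-values measure the spread between these preparations.

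Ly6C+ monocytes are the classical monocytes of the mouse, which arise in the BM from committed precursors, carry CSF1R (CD115) and leave the BM through CCR2. G-CSF is the main growth factor of granulocyte production and also mobilizes monocytes and progenitors into blood and spleen.

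The genes of the gate markers Ly6C, CD115 and CD11b were measured at similar levels in both groups. Ly6c2, which encodes the Ly6C antigen, read 13.01, 12.98 and 12.93 on the DT arrays and 12.88, 12.85 and 12.91 on the G-CSF arrays, a difference of -0.09 with a 95% confidence interval of -0.33 to 0.16, although the arrays of the groups narrowly did not overlap. Csf1r differed by -0.17 (-0.44 to 0.11), Itgam, which encodes CD11b, by 0.12 (-0.14 to 0.38), Ccr2 by 0.00 (-0.25 to 0.25) and Fcgr1, which encodes CD64, by -0.10 (-0.41 to 0.22). Of 12 genes listed here as sort markers 11 were measured and 0 passed the test. Only the genes of Ly6C, CD115 and CD11b among them belong to the stated gate, and the others are further monocyte genes. Of the latter, Adgre1, which encodes F4/80, was at 0.36 (adjusted p = 0.474) and Cx3cr1, the fractalkine receptor, at -0.49 (adjusted p = 0.534). T cell markers were dim, with list means of 5.10 to 5.18 on the G-CSF arrays and 5.11 to 5.15 on the DT arrays, where the median of a whole array lay near 5.4, and 0 of 12 reached an unadjusted p of 0.05. NK cell markers had list means of 5.12 to 5.47 and 5.22 to 5.76, with 0 of 10 passed and 9 estimates below 0, and DC markers 7.22 to 7.47 and 7.46 to 7.51, with 0 of 21 passed and 17 below 0.

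The 6 arrays resembled each other closely. Pearson's r over 22180 genes was 0.9871 to 0.9884 between DT arrays, 0.979 to 0.9868 between G-CSF arrays and 0.9799 to 0.9863 between the groups, against 0.9318 to 0.9456 for either group with the PBS arrays of the same set. G-CSF array 3 stood somewhat apart from the other G-CSF arrays, and values without it are given where they matter. The mean Euclidean distance between arrays of different groups (54.62) exceeded that within groups (55.41 among G-CSF arrays and 46.91 among DT arrays) by 3.458 on average, with p = 0.1 in an exact two-sided permutation test, the smallest value that 3 against 3 arrays can give. A further DT array from the set named G32 was left out of the contrast and is used here as a separate DT sample. The PBS arrays of the JS set carried less Ly6c2 (mean 11.35 ± 0.03, SD, n = 3) and Csf1r (9.50 ± 0.02, SD, n = 3) than both other groups, and correlated with the only G32 PBS array at 0.9187 to 0.9228, whereas that array correlated with the DT arrays at 0.9736 to 0.9759. The PBS arrays of the JS set add to the estimate of the spread, and values against them are given beside the comparison together with the G32 PBS array, which often lay elsewhere.

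Few genes separated G-CSF-Ly6C+ from DT-Ly6C+ monocytes. With limma and Benjamini-Hochberg adjustment, 8 of 22180 genes passed an adjusted p of 0.05 (0.0361%), 4 higher in G-CSF-Ly6C+ cells (0.018%) and 4 lower (0.018%). Over the alternatives this count ran from 0, with the G32 DT array added or with all 17 arrays, to 63 with trended eBayes. Of these 8 genes, C1qb, Nt5dc2, Shtn1 and Cd81 rose, and Jchain, Cd36, Camp and Ltf fell. In a limma fit of the 6 compared arrays alone, C1qb, Jchain and Camp still passed. The others did not, with an adjusted p of 0.118 for Nt5dc2, Shtn1 and Cd81, 0.0924 for Cd36 and 0.126 for Ltf. In the fit of all 9 JS arrays, 4530 genes (20.4%) passed for G-CSF against PBS and 4678 (21.1%) for DT against PBS. These counts rest on the PBS arrays of the JS set, which differed from the G32 PBS array. Over 19 stem and progenitor genes their means were 8.04 to 8.18, against 5.67 on the G32 PBS array. Their r with arrays of common monocyte progenitors was 0.9325 to 0.9402, against 0.8923 to 0.8948 for the G32 PBS array. The 95% interval of the difference G-CSF minus DT lay inside -1 to 1 for 21348 genes (96.2%), and inside -0.5 to 0.5 for 10401 (46.9%). Estimates went past 1 for 50 genes, 22 higher and 28 lower. The median difference over all genes was 0.02, and 53.6% of estimates lay above 0 and 46.4% below. At an unadjusted p of 0.05 by limma, 4.38% of all genes were higher and 3.74% lower. The arrays of the groups did not overlap for 7.17% of all genes in each direction. These shares are the background for the counts of every list below.

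**Figure D1:**
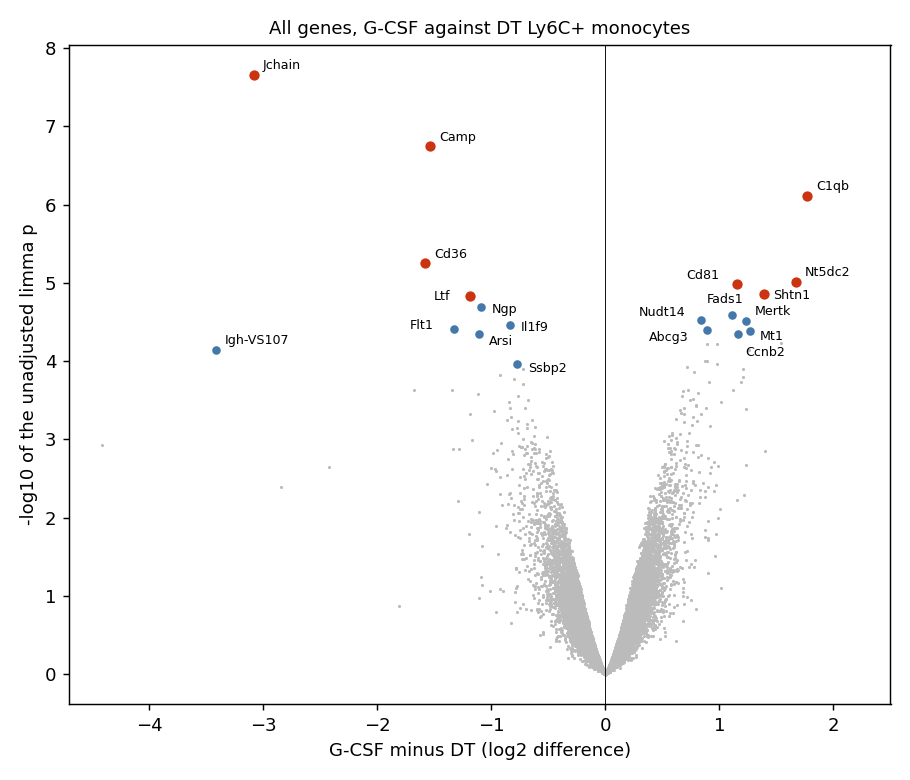
Each point is 1 of 22180 genes, with the log2 difference G-CSF minus DT on the x axis and -log10 of the unadjusted limma p on the y axis. Red points are the 8 genes that passed an adjusted p of 0.05, and blue points are the genes of next lowest p in each direction, none of which passed.

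The largest fall among the genes that passed was that of a plasma cell transcript. Jchain, the joining chain that links IgM and IgA into polymers in plasma cells, read 7.68, 7.84 and 7.28 on the DT arrays and 4.12, 4.47 and 4.97 on the G-CSF arrays. The groups lay more than 2 log2 units apart without overlap, and the G-CSF values were below the median of the array. Jchain fell by 3.08 (SE 0.23, adjusted p = 0.000484 by limma), which is 8.45-fold. The mean of the JS PBS arrays lay between them at 6.34 ± 0.24 (SD, n = 3), and the G32 PBS array read 7.34, within the range of the DT arrays. The G32 DT array read 4.17, as low as the G-CSF arrays, although its label is that of the DT group.

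The other 7 plasma cell markers of 8 listed did not pass the test, although all 8 estimates lay below 0 (lists are described throughout by counts and medians, with no test of the list). Irf4, a transcription factor of plasma cells that monocytes and DCs also use, differed by -0.81 (adjusted p = 0.243), and Sdc1, the plasma cell surface protein CD138, by -0.60 (adjusted p = 0.455). The list median was -0.15. The list mean, which includes Jchain, ran from 6.09 to 6.37 on the G-CSF arrays and from 6.74 to 6.96 on the DT arrays.

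Immunoglobulin gene segments were added as a list after the data had been seen. Of 22 segments 0 passed the test, 15 lay below 0 and 7 above, and the median difference was -0.41, which was -0.20 without DT array 2, -0.27 without DT array 3 and -1.04 with a filter on dim genes. The segment Igh-VS107 read 9.79, 9.80 and 9.46 on the DT arrays against 5.57, 5.85 and 7.39 on the G-CSF arrays. The difference was -3.41 (SE 0.56, adjusted p = 0.069). This segment has 2 probe sets, of which the brighter is shown. With the mean of both, the difference was -2.13 (adjusted p = 0.16 by limma). Its PBS arrays of the JS set read 5.79, 8.28 and 7.27, and the G32 PBS array read 10.29, above all DT arrays. Igkv9-120 differed by -4.41 (SE 1.02, adjusted p = 0.243), with the DT arrays themselves spread from 7.61 to 10.46. Igkv5-43 read 10.68, 11.49 and 10.18 on the DT arrays and 8.12, 8.37 and 8.60 on the G-CSF arrays (adjusted p = 0.275). Light and heavy chain segments are similar in sequence, so that 1 probe set may read several of them. Of 11 B cell markers measured 0 passed and the median was 0.06, with list means of 5.28 to 5.42 on the G-CSF arrays, within the range of the DT arrays. Ms4a1, which encodes CD20, was dim in both groups, with means of 3.56 and 3.64, while Cd79a, a chain of the B cell receptor, read 4.70, 4.54 and 4.27 on the G-CSF arrays against 5.04, 5.29 and 5.38 (difference -0.73, adjusted p = 0.243). In RNA of a sorted population, fewer cells of a type and less RNA per cell cannot be told apart, and the part of plasma cells in these values was not tested.

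The next group of genes that fell encodes proteins of neutrophil granules. Neutrophil granules form in order: primary granules with myeloperoxidase and serine proteases at the promyelocyte stage, then secondary and tertiary granules with lactoferrin, cathelicidin and gelatinase. Camp, the cathelicidin antimicrobial peptide of secondary granules, read 10.40, 10.05 and 10.26 on the DT arrays and 8.74, 8.72 and 8.65 on the G-CSF arrays. It fell by 1.53 (SE 0.14, adjusted p = 0.00199 by limma), or 2.89-fold, and the G-CSF arrays lay within 0.1 of each other. Ltf, the iron-binding protein lactoferrin, read 9.22, 9.10 and 9.46 on the DT arrays and 8.00, 7.82 and 8.40 on the G-CSF arrays, and fell by 1.19 (SE 0.17, adjusted p = 0.0411). Ngp, a cathelicidin relative of the same granules, differed by -1.09 without overlap between the groups but just missed the threshold (SE 0.16, adjusted p = 0.0507). Camp and Jchain passed without any 1 of the 6 arrays, whereas Ltf passed in only 1 of these 6 settings, that without G-CSF array 3.

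The 3 granule genes lie near each other on chromosome 9, and because they differed together their upstream sequences are shown. Each is the 160 bases just before the annotated start in RefSeq (GRCm38.p6), written 5′ to 3′ on the strand of the gene, with capitals marking matches to TTGCNNAA on either strand (TTNNGCAA on the other), letters of the type bound by C/EBP factors, which act in granulocyte and monocyte development.
Camp (chr9:109849457-109849616, minus strand): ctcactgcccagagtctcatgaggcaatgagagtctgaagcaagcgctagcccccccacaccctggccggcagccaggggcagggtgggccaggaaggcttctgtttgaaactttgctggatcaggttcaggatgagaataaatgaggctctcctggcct
Ltf (chr9:111019132-111019291, plus strand): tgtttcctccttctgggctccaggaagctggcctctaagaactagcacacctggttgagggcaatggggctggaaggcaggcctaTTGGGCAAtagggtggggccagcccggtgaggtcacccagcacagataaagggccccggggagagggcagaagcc
Ngp (chr9:110419648-110419807, plus strand): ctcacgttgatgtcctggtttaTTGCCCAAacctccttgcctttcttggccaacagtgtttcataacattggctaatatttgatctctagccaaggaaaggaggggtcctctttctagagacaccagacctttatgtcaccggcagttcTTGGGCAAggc
The Ltf stretch held 1 match, beginning 75 bases before the start, the Ngp stretch held 2, at 138 and 11 bases, and the Camp stretch held 0. Of all 32851 RefSeq promoter windows of 300 bases 10.8% held a match, and of the 23 measured secondary and tertiary granule genes that have a window, 8 did. A match is a description of the letters and not a bound site.

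Of 27 listed secondary and tertiary granule genes 26 were measured and 2 passed the test, Camp and Ltf. The list had 17 estimates below 0 and 9 above (65.4% below, against 46.4% of all genes), 10 lower and 1 higher at an unadjusted p of 0.05 (3.74% and 4.38% of all genes), and a median of -0.17. The median was -0.07 without DT array 1, and 6 genes were higher at the unadjusted threshold without G-CSF array 3. Ly6g, the antigen that defines neutrophils in flow cytometry, read 6.60, 6.71 and 6.71 on the DT arrays and 5.69, 5.76 and 5.80 on the G-CSF arrays (difference -0.92, adjusted p = 0.104), far below its PBS mean of 10.70, and it was dimmer still on the G32 DT array at 3.78. The list mean was 7.94 to 8.17 on the G-CSF arrays, 8.24 to 8.40 on the DT arrays and at most 10.04 on the PBS arrays of the JS set, whereas the G32 PBS array, at 7.23, lay below both groups. In the fit of all 17 arrays with a term for the array set the median was -0.50. That term rests on the DT and PBS arrays, since no G-CSF array was run in the G32 set. List medians of that fit therefore also carry the gap between the PBS arrays of the sets.

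The list of mature neutrophil genes shares Mmp9 with the secondary and tertiary granule list. Of 18 measured of 19 listed, 0 passed, and 11 lay below 0 and 7 above. At an unadjusted p of 0.05, 7 were lower and 0 higher (3.74% and 4.38% of all genes). The median was -0.21 (-0.36 in the fit of all 17 arrays). Hdc, the histamine-forming enzyme, differed by -0.72 (adjusted p = 0.116), Cxcr2, the receptor that recruits neutrophils, by -0.61 (adjusted p = 0.203) and Mmp9, the gelatinase, by -0.64 (adjusted p = 0.243), each without overlap between the groups. List means ran from 8.94 to 9.18 on the G-CSF arrays and from 9.23 to 9.35 on the DT arrays. The listed lineage antibodies include anti-Ly-6G, which binds neutrophils, and the DT cells, in which Camp and Ltf were higher, were also gated as CD115-high. With the same stated gate, list means were 11.01 to 11.085 on the PBS arrays of the JS set and 8.73 on the G32 PBS array. The stated gate therefore does not tell how much neutrophil RNA a preparation held. The part of neutrophil RNA in the fall of Camp and Ltf was not tested.

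Primary granule genes lay on the other side. Of 14 measured 0 passed, but 11 estimates lay above 0 and 3 below (78.6% above, against 53.6% of all genes), 6 were higher and 1 lower at an unadjusted p of 0.05, and the median was 0.23. Prtn3, a serine protease of promyelocytes, read 7.63, 8.06 and 7.30 on the G-CSF arrays and 6.91, 6.30 and 6.21 on the DT arrays (difference 1.19, SE 0.22, adjusted p = 0.115). Mpo, myeloperoxidase, differed by 0.57 (adjusted p = 0.443) at 6.86 to 7.49 against 6.25 to 6.83, and Nkg7, a granule membrane protein of cytotoxic cells and of myeloid precursors, by -0.86 (adjusted p = 0.449) with overlapping arrays. These levels were far below those of the PBS arrays, where Mpo averaged 12.20, but the G32 PBS array, with a list mean of 6.84, lay within the range of the DT arrays. The number higher at the unadjusted threshold was 3 without G-CSF array 1 or DT array 2 and 2 without DT array 1. The median turned to -0.09 in a fit of all 17 arrays with a term for the array set. That term rests on the DT and PBS arrays. The PBS arrays of the sets differed widely in this list, so that the sign in that fit does not decide the direction.

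The largest rise among the genes that passed was that of C1qb. It encodes a chain of C1q, the recognition molecule of the classical complement pathway, which in the spleen is made mainly by macrophages. C1qb read 9.29, 9.29 and 9.90 on the G-CSF arrays and 7.88, 7.68 and 7.63 on the DT arrays, and rose by 1.77 (SE 0.18, adjusted p = 0.00567 by limma), or 3.40-fold. The groups did not overlap, and the call was lost only without DT array 3 among the 6 arrays (adjusted p = 0.0579). The other C1q chains, named after their values were seen, did not pass, with differences of 0.71 for C1qa (adjusted p = 0.369) and 0.66 for C1qc (adjusted p = 0.438), each without overlap between the groups. Against the PBS arrays of the JS set, C1qb differed by -1.23 in DT-Ly6C+ cells (adjusted p = 0.000397) and by 0.54 in G-CSF-Ly6C+ cells (adjusted p = 0.0574). The G32 PBS array read 6.42, below all DT arrays, so that the direction of DT against PBS turned with the PBS array used. The G32 DT array read 8.50, between the groups.

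Of 25 complement genes listed, the C1q chains included, 22 were measured, 1 passed, 16 lay above 0 and 6 below, 6 were higher and 0 lower at an unadjusted p of 0.05, and the median was 0.22, which was 0.09 without G-CSF array 2. C3ar1, the receptor for the complement fragment C3a, read 7.19, 7.21 and 6.90 on the G-CSF arrays and 6.25, 6.39 and 6.25 on the DT arrays (difference 0.81, adjusted p = 0.182). Cfp, properdin, which stabilizes the alternative pathway convertase, differed by 0.56 (adjusted p = 0.311), also without overlap.

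Of 24 tissue macrophage markers listed 23 were measured and 1 passed, C1qb itself. The estimates were above 0 for 15 and below for 8, 9 were higher and 3 lower at an unadjusted p of 0.05, and the median was 0.20 (0.32 without DT array 1). Mertk, a receptor for apoptotic cells, read 7.35, 7.10 and 7.71 on the G-CSF arrays and 6.02, 6.34 and 6.10 on the DT arrays, a difference of 1.23 (SE 0.18, adjusted p = 0.0561). Slc40a1, the iron exporter ferroportin of red pulp macrophages, differed by 1.54 (SE 0.25, adjusted p = 0.0644), with 7.41, 7.47 and 8.45 against 6.53, 6.11 and 6.08. C1qb, Mertk and Slc40a1 were the members of lowest p, and differences in the list ran from -0.62 to 1.77. G-CSF array 3 was the highest of all arrays of both groups for C1qb, Mertk and Slc40a1. The list mean was 7.09, 7.19 and 7.52 on the G-CSF arrays and 6.89 to 7.02 on the DT arrays. DT in CD11c.DTR mice also removes macrophages from the spleen, so the part of macrophages in the sorted cells of either group cannot be told apart from a difference within monocytes.

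The surface proteins Cd36 and Cd81 passed in opposite directions. Cd36, a scavenger receptor that takes up fatty acids and oxidized lipoprotein, read 8.67, 8.58 and 8.30 on the DT arrays and 6.49, 7.06 and 7.25 on the G-CSF arrays, and fell by 1.58 (SE 0.20, adjusted p = 0.0311), or 2.99-fold. Its mean on the PBS arrays of the JS set was lower than both at 5.43 ± 0.19 (SD, n = 3), the G32 PBS array read 6.96, within the range of the G-CSF arrays, and the G32 DT array, at 6.17, read below all G-CSF arrays. Cd81, a tetraspanin that organizes membrane receptors, read 8.03, 8.21 and 8.61 on the G-CSF arrays and 7.24, 7.05 and 7.11 on the DT arrays, and rose by 1.15 (SE 0.15, adjusted p = 0.0383). Cd81 was higher still on the PBS arrays of the JS set, at 9.78 ± 0.02 (SD, n = 3), but the G32 PBS array read 6.63, below every array of both groups, and the G32 DT array read 7.92. Cd36 passed only without G-CSF array 3 among the 6 settings that leave out an array, and Cd81 only without G-CSF array 1 or without G-CSF array 3. Among 20 measured tetraspanins Cd81 alone passed, and the median of the list was -0.03.

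Nt5dc2, a member of a nucleotidase-like family, rose by 1.67 (SE 0.22, adjusted p = 0.0383), with 7.76, 7.59 and 7.28 on the G-CSF arrays. Its DT values of 5.46, 6.42 and 5.73 were the most spread of the genes that passed. Shtn1, which encodes shootin, a protein known from axon outgrowth, read 9.37, 9.53 and 8.74 on the G-CSF arrays and 7.75, 7.94 and 7.76 on the DT arrays, and rose by 1.39 (SE 0.19, adjusted p = 0.0411). The means of the JS PBS arrays lay above the range of both groups for Nt5dc2 (8.80 ± 0.09, SD, n = 3) and below it for Shtn1 (6.93 ± 0.15, SD, n = 3). The G32 PBS array read 6.30 for Nt5dc2, within the range of the DT arrays, and 7.41 for Shtn1, below both groups. Without 1 of the 6 arrays, Nt5dc2 passed in 2 settings and Shtn1 in 1.

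**Figure D2:**
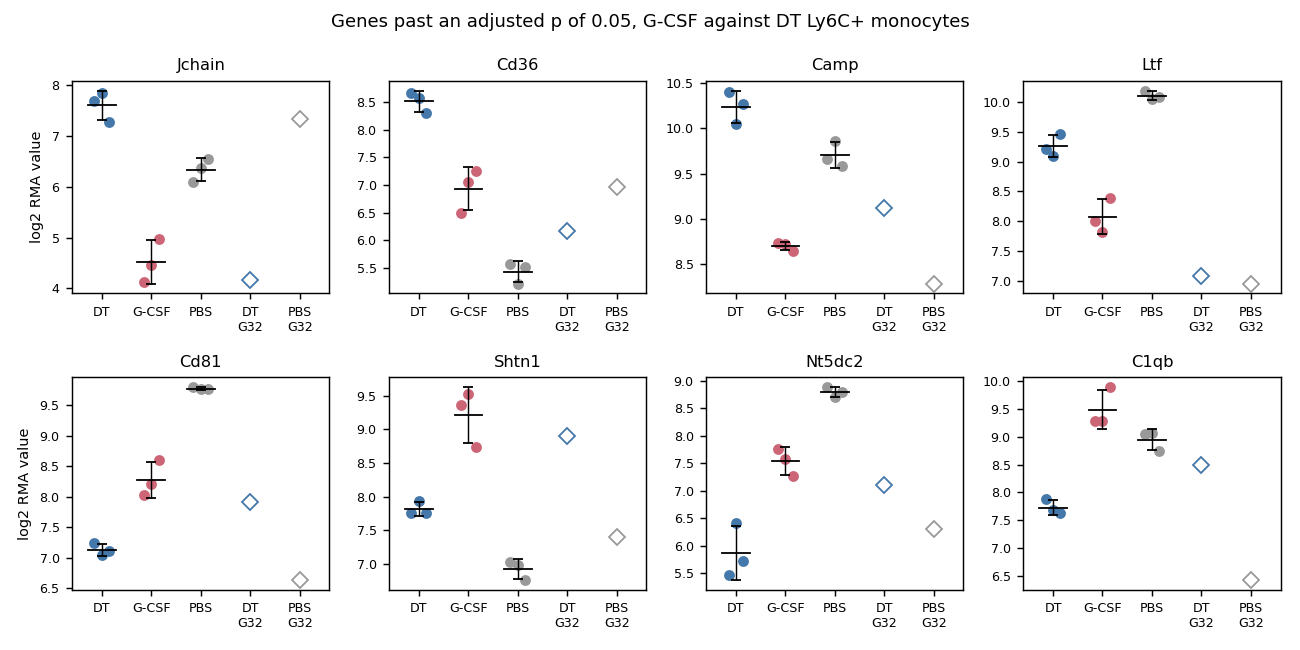
Log2 RMA values of the 8 genes that passed, by array. Filled points are the 3 arrays of each group of the JS set, with the mean and SD in black, and open diamonds are the single DT and PBS arrays of the G32 set, which were not in the contrast. The filled DT and G-CSF points do not overlap in any panel, and the open DT diamond lies nearer the G-CSF mean in 7 of 8 panels, all but C1qb.

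The G32 DT array bears on all of these genes, since it is labelled as the same group. It lay nearer to the G-CSF mean than to the DT mean for 7 of the 8 genes that passed (87.5%), for 1020 of 1801 genes at an unadjusted p of 0.05 (56.6%) and for 11487 of all 22180 genes (51.8%). With that array added to the DT group, 0 genes passed by limma and 1478 had an unadjusted p under 0.05. In that fit the spread of the DT group includes any difference between the array sets, and a DT array and a set effect cannot be told apart for this array. The differences of the 8 genes kept their sign but were smaller, with -2.22 for Jchain, -1.26 for Camp, 1.57 for C1qb and 0.95 for Cd81. Cd36 was at -0.996 in place of -1.58, and Ltf at -0.64 in place of -1.19.

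Among genes of next lowest p that did not pass, Fads1, a fatty acid desaturase, differed by 1.11, Nudt14, a nucleotide sugar hydrolase, by 0.84, Abcg3, an ABC transporter family member, by 0.89, and Mt1, a metallothionein that binds zinc, by 1.27 (adjusted p = 0.0561 for each). In the other direction Il1f9, an IL-1 family cytokine, differed by -0.83, Flt1, a receptor for VEGF, by -1.33 and Arsi, a sulfatase, by -1.11 (adjusted p = 0.0561 for each), and Ssbp2, a single-stranded DNA-binding protein, by -0.78 (adjusted p = 0.09). The DT and G-CSF arrays did not overlap for these 8 genes, as was the case in the higher direction for 1591 genes (7.17% of all) and in the lower direction for 1590 (7.17%).

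Because so few genes passed singly, 66 lists of genes with shared roles were described by their counts and medians, beside the median of 0.02 over all genes. Over the 6548 genes with a mean level of 7 or more the median was -0.04, the closer background for lists of bright genes. The share of estimates below 0 was not counted among those genes. In 57 of them 0 members passed. The median lay under 0.1 in size in 39 lists, at 0.2 or more in 4 (primary granule, complement, cell cycle and tissue macrophage) and at -0.2 or less in 5 (immunoglobulin segments, immediate early, interferon-stimulated, nucleic acid sensing and mature neutrophil). Some lists with smaller medians were also one-sided. Spliceosome and RNA-binding genes had 27 estimates below 0 and 6 above (median -0.111), and heat shock genes 12 and 3 (median -0.105). Proteasome genes had 11 below and 21 above, and ribosomal protein genes 28 and 31.

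**Figure D3:**
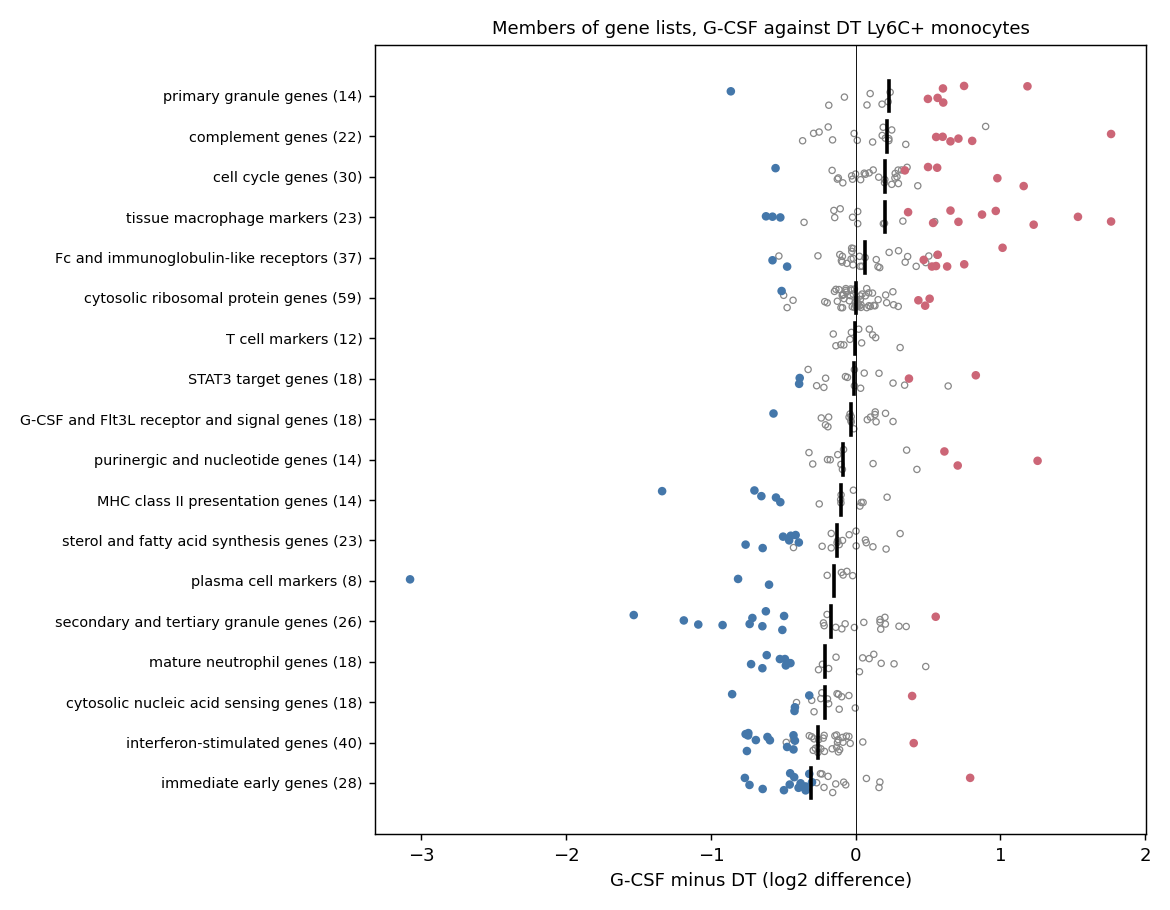
Log2 differences, G-CSF minus DT, of the members of 18 lists, 1 point per gene, with the number measured in parentheses and the list median as a black bar. Filled points reached an unadjusted p of 0.05, red for higher and blue for lower in G-CSF-Ly6C+ cells, and open points did not. Immediate early and interferon-stimulated genes lie mostly left of 0, and ribosomal protein and T cell genes lie around 0.

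Immediate early genes, which cells switch on within minutes of a signal and also during tissue dissociation, had the most negative median of the lists not added after the data were seen. Of 29 listed 28 were measured and 0 passed, with 24 estimates below 0 and 4 above (85.7% below, against 46.4% of all genes), 14 lower and 1 higher at an unadjusted p of 0.05 (3.74% and 4.38% of all genes), and 17 without overlap in the lower direction (7.17% of all genes). The median was -0.31 and ranged from -0.34 to -0.21 over the alternatives, against -0.04 over all genes with a mean level of 7 or more. Klf4, a transcription factor of monocyte differentiation, read 10.59, 10.43 and 10.41 on the DT arrays and 9.69, 9.48 and 9.97 on the G-CSF arrays (difference -0.77, adjusted p = 0.182). Nr4a2, a nuclear receptor induced by inflammatory signals, differed by -0.73 (adjusted p = 0.243), with 10.56, 10.14 and 10.27 against 9.46, 9.50 and 9.82. Ier3, a survival gene induced by NF-kB, went the other way, with 10.53, 10.60 and 10.38 on the G-CSF arrays against 10.10, 9.54 and 9.49 (difference 0.79, adjusted p = 0.243). The list mean was 9.29, 9.29 and 9.39 on the G-CSF arrays and 9.67, 9.54 and 9.53 on the DT arrays, and both groups lay above the PBS arrays of the JS set, at 8.98 to 9.01, but the G32 PBS array read 9.58. The number lower at the unadjusted threshold was 8 without DT array 1, 9 without G-CSF array 1 and 5 with the G32 DT array added.

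Interferon-stimulated genes (ISGs), induced by type I interferon through the factor ISGF3, were the most one-sided of the lists with 20 or more measured genes. Of 46 listed 40 were measured and 0 passed, with 38 estimates below 0 and 2 above (95% below), 11 lower and 1 higher at an unadjusted p of 0.05, and a median of -0.26. Isg15, a ubiquitin-like modifier, read 8.50, 8.35 and 8.64 on the DT arrays and 7.74, 7.68 and 7.99 on the G-CSF arrays (difference -0.69, SE 0.15, adjusted p = 0.194). Mx2, an antiviral GTPase, read 8.25, 8.06 and 8.29 against 7.47, 7.44 and 7.41 (difference -0.76, adjusted p = 0.243). Isg20, an exonuclease, differed by -0.61 (adjusted p = 0.275), with 8.61, 8.63 and 8.34 against 7.79, 8.03 and 7.93. The arrays did not overlap in these 3 genes. The list mean was 9.04, 9.01 and 9.01 on the DT arrays and 8.57, 8.69 and 8.93 on the G-CSF arrays, with G-CSF array 3 nearest to the DT arrays. Without that array the median was -0.38 and 20 genes were lower at the unadjusted threshold. That number was 6 without G-CSF array 1 or G-CSF array 2, 7 without DT array 2 and 5 with the G32 DT array added. Both groups lay above the PBS arrays of the JS set, at 7.86 to 8.01, with median differences of 0.65 for G-CSF and 1.08 for DT, while the G32 PBS array read 8.63, within the range of the G-CSF arrays.

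The upstream sequences of 3 ISGs of low p are shown because they carry the letters bound by interferon factors, as 160 bases before the annotated start (RefSeq, GRCm38.p6, 5′ to 3′ on the strand of the gene). Capitals mark matches on either strand to the core of the interferon-stimulated response element, read as GAAA, any 2 bases and GAAA again, and neighbouring matches may overlap. Slfn5, a Schlafen family gene, and Irgm1, an immunity-related GTPase, were chosen with Isg15 as the ISGs of lowest p, among those lower at an unadjusted p of 0.05, with a single window that holds a match in this stretch.
Isg15 (chr4:156200819-156200978, minus strand): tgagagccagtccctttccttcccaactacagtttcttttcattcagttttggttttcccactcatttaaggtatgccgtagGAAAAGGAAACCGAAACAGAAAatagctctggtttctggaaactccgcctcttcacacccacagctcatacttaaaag
Slfn5 (chr11:82951942-82952101, plus strand): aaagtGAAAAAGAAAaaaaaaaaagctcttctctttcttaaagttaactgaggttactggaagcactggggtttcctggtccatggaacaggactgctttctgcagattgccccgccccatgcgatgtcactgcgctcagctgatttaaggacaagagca
Irgm1 (chr11:48871421-48871580, minus strand): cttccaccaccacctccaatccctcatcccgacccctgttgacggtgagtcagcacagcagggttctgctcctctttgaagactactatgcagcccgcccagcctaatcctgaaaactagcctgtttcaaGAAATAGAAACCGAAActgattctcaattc
Isg15 held 3 overlapping matches, beginning 78, 72 and 66 bases before the start, Slfn5 held 1 at 155 bases and Irgm1 held 2 at 30 and 24 bases. Of the 30 measured ISGs that have a window of 300 bases, 18 held a match, against 3.44% of all windows. Among the ISGs lower at an unadjusted p of 0.05, 9 have a window and 5 of these held a match. A match was therefore not more frequent among the lower ISGs than in the whole list. Slfn5 differed by -0.47 (adjusted p = 0.358) and Irgm1 by -0.43 (adjusted p = 0.538).

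Genes that sense nucleic acids in the cytosol share the members Ddx58, Ifih1, Dhx58, Zbp1 and Irf7 with the ISG list. Of 18 measured of 20 listed, 0 passed, 17 lay below 0 and 1 above, and the median was -0.21, which was -0.07 in the fit of all 17 arrays. Ifi205, a DNA-binding member of the AIM2-like family, read 9.88, 10.04 and 9.96 on the DT arrays and 8.88, 8.80 and 9.64 on the G-CSF arrays (difference -0.85, adjusted p = 0.259), and Nlrp3, the inflammasome sensor, differed by -0.42 (adjusted p = 0.488). The exception was Sting1, the adaptor of the DNA sensor cGAS, with 10.56, 10.68 and 10.53 on the G-CSF arrays against 10.30, 10.23 and 10.07 (difference 0.39, adjusted p = 0.43).

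**Figure D4:**
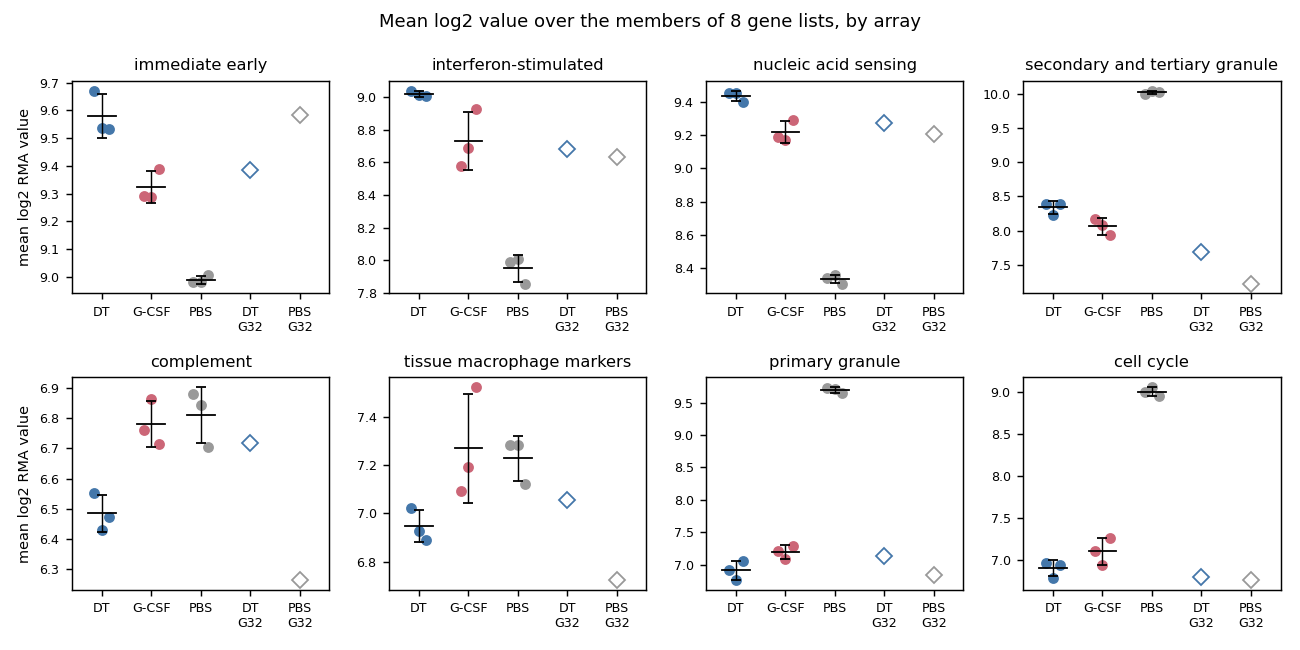
Mean log2 value over the members of 8 lists, by array, with the groups, bars and open diamonds as in the plot of single genes. DT and G-CSF points do not overlap in 7 panels, and overlap for cell cycle genes, where a DT array reads 6.97 and a G-CSF array 6.95.

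Cell cycle genes lay above 0 in 22 of 30 measured and below in 8, with 0 passed, 5 higher and 1 lower at an unadjusted p of 0.05, and a median of 0.20. Ccnb2, a mitotic cyclin, read 9.02, 8.84 and 8.96 on the G-CSF arrays and 7.69, 7.49 and 8.15 on the DT arrays (difference 1.16, SE 0.18, adjusted p = 0.0561). Ube2c, which marks cyclins for degradation in mitosis, differed by 0.98 (adjusted p = 0.09), and Mcm5, a subunit of the replicative helicase, by 0.56 (adjusted p = 0.243). The median was 0.12 without G-CSF array 3, 0.13 without DT array 2 and -0.07 in the fit of all 17 arrays. The array-set term of that fit rests on the DT and PBS arrays, since no G-CSF array was run in the G32 set. The PBS arrays of the sets differed widely in this list, so that the sign in that fit does not decide the direction. Both groups lay about 2 log2 units below the PBS arrays, with median differences of -2.10 for G-CSF and -2.31 for DT, whereas the G32 PBS array, with a list mean of 6.77, lay below all arrays of both groups.

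MHC class II genes lay below 0 in 10 of 14 measured, with 0 passed, 5 lower and 0 higher at an unadjusted p of 0.05, and a median of -0.10. H2-DMb2, a chain of the peptide exchange factor, read 7.98, 7.24 and 7.23 on the DT arrays and 6.48, 6.61 and 5.35 on the G-CSF arrays (difference -1.34, adjusted p = 0.243), and its relative H2-DMb1 differed by -0.52 (adjusted p = 0.243). H2-Aa, a chain of the class II molecule itself, read 9.29, 9.58 and 10.41 on the G-CSF arrays against 10.56, 10.52 and 10.31, so that G-CSF array 3 lay among the DT arrays (adjusted p = 0.452).

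Sterol and fatty acid synthesis genes lay below 0 in 16 of 23 measured, with 0 passed, 7 lower and 0 higher at an unadjusted p of 0.05, and a median of -0.13. Srebf2, the transcription factor that drives sterol synthesis, read 9.37, 9.27 and 8.96 on the DT arrays and 8.59, 8.50 and 8.58 on the G-CSF arrays (difference -0.64, adjusted p = 0.18). Cyp51, a sterol demethylase, differed by -0.76 (adjusted p = 0.438) and Insig1, a sterol sensor partner, by -0.45 (adjusted p = 0.487).

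Single members stood out in lists with medians near 0. Among 14 purinergic genes the receptor P2ry12 read 9.24, 9.48 and 8.82 on the G-CSF arrays and 8.02, 8.12 and 7.63 on the DT arrays (difference 1.26, adjusted p = 0.069), and its neighbours P2ry13 and P2ry14 differed by 0.71 (adjusted p = 0.243) and 0.61 (adjusted p = 0.326), all on chromosome 3. Among 37 Fc and immunoglobulin-like receptors 0 passed, 7 were higher and 2 lower at an unadjusted p of 0.05 (4.38% and 3.74% of all genes), with Cd300lf, an inhibitory receptor, at 1.02 (adjusted p = 0.144), Fcgr4, an activating IgG receptor, at 0.75 (adjusted p = 0.333) and Cd300lb, an activating relative of Cd300lf, at -0.47 (adjusted p = 0.277).

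The genes closest to the treatments themselves differed little. Of 18 genes of the receptors for G-CSF and Flt3L and their signaling, 0 passed, 0 were higher and 1 lower at an unadjusted p of 0.05, and the median was -0.03. Flt3, the receptor for Flt3L, differed by -0.57 (adjusted p = 0.571) with overlapping arrays, and Csf3r, the receptor for G-CSF, averaged 10.1 on the G-CSF arrays and 10.28 on the DT arrays, again with overlap (difference -0.19, adjusted p = 0.733). The median was -0.01 for 18 targets of STAT3, the factor that G-CSF activates, with 2 higher and 2 lower at an unadjusted p of 0.05. For 59 ribosomal protein genes the median was 0.00, with 3 higher and 1 lower.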

How the data were processed

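The deposited values are log2 levels per probe set that the authors obtained by RMA in oligo (versions not given in the sources used here). RMA holds background correction and quantile normalization, so a shift common to all genes of an array is not visible. Of 41345 probe sets, 23521 had 1 gene symbol in the array annotation, 1820 had several and 16004 were not in it. For each of 22180 genes, the probe set of highest mean over the 6 arrays among those with a single symbol was used (21994 matched by identifier in RefSeq). R 4.3.3 with limma 3.58.1 fitted 9 arrays of the JS set, 1 term per group, with the contrast G-CSF minus DT, eBayes and Benjamini-Hochberg adjustment over all genes at 0.05. Values are log2, differences are G-CSF minus DT, errors are SE or SD and intervals cover 95%. Arrays carry no read depth, and their number limits the precision. The fit was tested on simulated data with 200 changed genes. Distances were compared by an exact permutation test. The members and gene lists were chosen with earlier results of these data known. Named genes are 4 given markers, the sort markers, the genes that passed without overlap, filled up to 10 per direction by lowest p, and up to 3 genes of lowest p per list described; others were named after their values were seen. Alternatives were the 6 arrays alone, all 17 arrays with a term for the array set, quantile normalization, median centring, the mean of probe sets, a filter on dim genes (30th percentile), trended and robust eBayes, array weights, a replicate block and leaving out each array. A fit with the G32 DT array added, trended or robust eBayes alone and the immunoglobulin list were added after the data were seen. Python 3.11.15 and matplotlib 3.10.9 drew the figures.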

Additional observations from a re-analysis of the deposited data

Results flagged for a closer look

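In 8 of 31 genes whose 4 DT-labelled arrays were checked, the G32 DT array lay far from the 3 DT arrays of the JS set, with a gap to the nearest array divided by the whole range above Dixon's 95% critical value for 4 samples. Chance flags about 1 in 20 groups, but most of these genes were chosen for a low p in the JS contrast, which favours genes with close DT arrays, so that this rate does not hold for them. The quotient was 0.847 for Jchain, 0.851 for Cd36, 0.848 for Ltf, 0.835 for Ngp, 0.858 for Il1f9 and 0.899 for Igh-VS107, in all of which the G32 array was the lowest. It was 0.834 for Shtn1 and 0.87 for Nudt14, in which the G32 array was the highest. In these 8 genes the G32 array departed from the other DT arrays towards or past the G-CSF arrays. Whether the array set or the preparation sets these values cannot be told apart, since the G32 set holds 1 DT array and 0 G-CSF arrays.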

How the results depend on the processing

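The count of 8 genes depended on the fit. It was 3 (1 higher, 2 lower) with the 6 arrays alone, 0 with all 17 arrays and a term for the array set (0 higher, 0 lower; 1334 at an unadjusted p under 0.05), 21 (13 and 8) with a filter on dim genes, which tests 15526 genes, 56 (30 and 26) with trended and robust eBayes, 63 (33 and 30) with trended eBayes alone and 30 (19 and 11) with array weights. With the G32 DT array added it was 0 (0 and 0), and 25 genes went past 1 instead of 50. All 8 genes were among those called under the filter, the trended fits and the array weights. Leaving out 1 array gave 2 to 59 genes (0 to 36 higher, 2 to 23 lower), with 59 without G-CSF array 3, 2 without DT array 3, 3 without DT array 1 and 4 without each of the other arrays, and 50 genes past 1 became 60 to 84. Quantile normalization, median centring, the mean of probe sets and robust eBayes alone gave 6 to 10.

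The array numbers showed no clear pairing of the samples. Deviations of same-numbered arrays correlated at 0.025, 0.014 and 0.0522, and those of differently numbered arrays at -0.0473 to 0.0243. With so few arrays these values cannot exclude a pairing. A fit with the number as a replicate block called 6 genes (3 higher, 3 lower), 4 of the 8 among them. The differences of the 10 genes named by lowest p in each direction, the 8 included, kept their sign under every alternative run. With all 17 arrays and a term for the array set, the list median turned to -0.09 for primary granule genes, -0.07 for cell cycle genes and 0.11 for sort markers. In that fit the term comes from the DT and PBS arrays alone, since no G-CSF array was run in the G32 set. These signs therefore do not decide the direction of G-CSF against DT. Distances gave 3.778 over the 1000 most variable genes and 0.001878 for 1 minus Pearson's r, each with exact p = 0.1. The cause of these dependences was not tested.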
